A study of Homo sapiens with 18 samples.

Results

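The regions described here were V5 peaks of the K450RK451R double mutant of EHMT1 that lay away from protein-coding genes and from every peak of the other V5 and H3K9me2 lists. Of 14594 double-mutant V5 peaks on chromosomes 1 to 22 and X, 13494 (92.5%) shared not 1 bp with any peak of the 3 other V5 lists or the 4 H3K9me2 lists, and these were called gained. Of the gained peaks, 6612 (49%, Wilson 95% interval 48.2 to 49.8) had their summit outside all 20098 protein-coding genes and over 1 kb from the starts of those genes in the hg19 lift of GENCODE. These 6612 gained intergenic sites were therefore chosen by measured peak calls, and their gain, peak heights and position are given as descriptions without a test. The other 6882 gained peaks, inside coding genes or within 1 kb of their starts, served as the class for comparison. On a regular grid of positions every 40000 bp, 53.7% of 70890 positions passed the same position filter.

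The series held 18 ChIP-seq samples of LNCaP, an androgen-sensitive human prostate cancer cell line, in 9 groups of 2 replicates. In 8 groups the cells were stable lines with a doxycycline-inducible, V5-tagged EHMT1 that was wild type (WT), K450R, K451R or K450RK451R, and each was treated with 0.5 µg/ml doxycycline for 2 days before ChIP with an antibody to V5 or to H3K9me2. In the ninth group, untreated parental LNCaP cells were precipitated with an antibody to EHMT1 itself, and its peaks are called native EHMT1 peaks. One peak list stood for each group, so no value below carries a replicate error, and p-values and intervals over peaks cover counting error only. Peak lists hold no expression values, so the labelled cell type was not checked against marker genes. All induced lines still carried their own EHMT1, and peaks that lie in copies of the same repeat are not independent of each other.

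EHMT1, also called GLP, is a lysine methyltransferase that works with EHMT2 (G9a) to place mono- and dimethyl marks on lysine 9 of histone H3, a mark of silent euchromatin. The 2 lysines changed here are sites at which EHMT1 itself can be methylated, and arginine there cannot carry that mark. Much of the DNA between coding genes is made of transposable elements. Alu elements are short, CpG-rich elements copied by the machinery of L1, an autonomous retrotransposon whose promoter lies at its 5′ end, and SVA elements are composites that begin with a tandem CCCTCT repeat. Alpha satellite and GGAAT-type satellites are tandem repeats of centromeres and their flanks. RE1 is the element bound by REST, a repressor of neuronal genes known to recruit EHMT2 to chromatin.

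The sequences below show the satellites among the gained intergenic sites, which are described further on as the fourth and the fifth family of windows. Each is a window of hg19 that reaches 100 bases to either side of the summit, on the plus strand, from the site nearest to the median −log10 q of its family. The first, chr7:61542472-61542672, is from a satellite with a period of 171 bases and held no CG pair. The second, chr20:29818336-29818536, is from the GGAAT satellite, with each GGAAT in capitals.
171-base satellite: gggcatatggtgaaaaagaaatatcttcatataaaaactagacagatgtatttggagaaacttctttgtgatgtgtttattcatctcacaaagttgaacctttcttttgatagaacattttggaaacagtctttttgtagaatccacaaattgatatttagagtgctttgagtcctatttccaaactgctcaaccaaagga
GGAAT satellite: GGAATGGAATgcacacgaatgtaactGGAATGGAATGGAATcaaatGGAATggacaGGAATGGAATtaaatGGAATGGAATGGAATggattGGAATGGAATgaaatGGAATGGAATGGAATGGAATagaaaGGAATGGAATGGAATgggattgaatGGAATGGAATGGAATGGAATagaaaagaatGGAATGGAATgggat

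Most of the gained intergenic sites were repeat sequence, and most of these were Alu. Alu-type sequence was called by a BLAST match to any of 80 Alu copies from chromosome 21, from which a consensus was also built. It was found in 3522 of 6612 windows, or 53.3% (52.1 to 54.5). The same share was 11.0% in windows 1 kb away from the sites and 12.8% on the grid outside coding genes. Gained peaks inside coding genes held Alu in 4156 of 6882 windows, 60.4%, which was 7.12 percentage points above the intergenic sites (two-sided Fisher's exact test, adjusted p = 9.64e-16 over 28 tests). The grid differed in the same direction, with Alu in 17.3% of positions inside coding genes. High-copy sequence of any kind, meaning windows with at least 50% of their bases in words of 16 bases that occur 100 times or more in hg19, went the other way. It made up 79.7% of the intergenic windows against 75.3% inside coding genes (a difference of 4.39 points, Fisher's exact test, adjusted p = 4.86e-09), and 32.3% at 1 kb away. The grid again differed in the same direction as the peaks, with 23.9% outside coding genes and 21.1% inside them. Among peaks with a −log10 q of at least 5 the order turned, 69.6% against 72.4% (Fisher's exact test, p = 0.258). Among the 317 sites with 18 reads or more, a setting added after the data were seen, the share was 33.4%. Inside coding genes it was 19.5% (p = 0.0154, Fisher's exact test). Neither p was adjusted. High-copy was the narrower term at these 317 sites, since only 33.1% of them fell in none of the repeat kinds described below.

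The 3090 windows without Alu were grouped by sequence similarity into 31 families of 5 or more windows, which together took 1984 of them. The families were built on the sites themselves, so their shares are a description. The first family, 948 sites, was of L1 type. It was named the 5′ end of L1 from the distance given next, which was measured without regard to strand or side. A stretch related to L1TD1, a human gene derived from the first open reading frame of L1, lay within 4 kb in 926 of them (97.7%), at a median distance of 1060.5 bp. Windows that matched it were 14.4% of the gained intergenic sites, 8.05% of gained peaks inside coding genes, 2.80% of windows 1 kb away and 0.641% of grid positions. The second family, 398 sites (6.02%), was of SVA type: a tandem CCCTCT array lay within 2 kb of 261 of them (65.6%). It made up 5.70% of gained peaks inside coding genes and 0.123% of the grid. The third family, 167 sites, had a median GC content of 70.1%, no tandem structure and no name given here. It matched 2.57% of the intergenic windows, 0.872% of those inside coding genes and 0.155% of the grid.

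The fourth and the fifth family were satellites. In the fourth, 82 of 95 windows were tandem and 77 had a period of 171 bases, the repeat unit of alpha satellite. In the fifth, 46 of 57 windows were tandem, with a median of 17 GGAAT per window. Both kinds were as frequent 1 kb away (1.38% and 0.833%) as at the sites (1.44% and 0.862%). The fourth matched 0.449% of the grid and no gained peak inside coding genes. The remaining 26 families held 319 sites, from 5 to 36 each, and 51.7% of these sites were within 1 Mb of an assembly gap of 10 kb or more. A further 1071 sites (16.2%) fell in no repeat kind, with a median GC content of 59.7%.

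**Figure D1:**
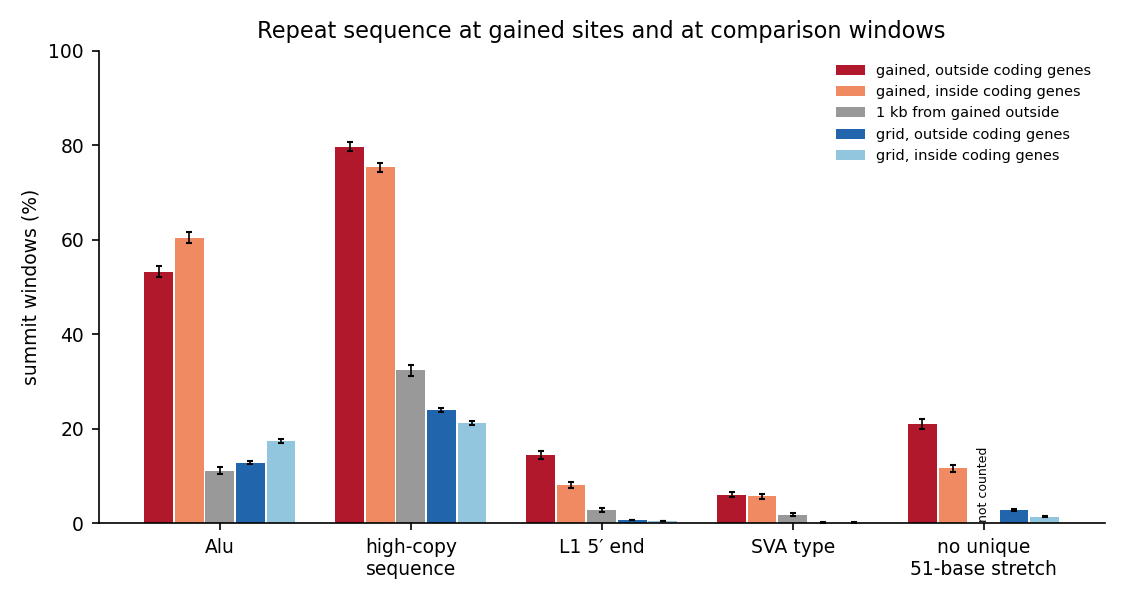
Share of summit windows, in percent, that hold Alu-type sequence, are high-copy, match the L1-type or the SVA-type family, or have no unique stretch of 51 bases, at the gained intergenic sites, at gained peaks inside coding genes, 1 kb from the sites and on the grid outside and inside coding genes, with Wilson 95% intervals that cover counting error only. Alu stands at 53.3% of the sites against 12.8% of the grid outside coding genes, and the L1-type family at 14.4% against 0.641%; unique stretches were not counted 1 kb away.

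The Alu copies under these peaks were CpG-rich and of a young type. Over Alu windows, the median number of CG pairs per window was 9 at the intergenic sites, 8 at gained peaks inside coding genes and 4 on the grid. The comparison was repeated for windows centred on bases 161 to 220 of the Alu consensus, so that each covers the same stretch of the element. There the medians were 10, 8 and 4 CG pairs, and the median identity to the consensus was 90.36%, 89.95% and 86.25%. In the same windows, the string GGCGTGAAC, which marks the AluY subfamily, the youngest of the main Alu subfamilies, was found at 698 of 1319 intergenic sites (52.9%, 50.2 to 55.6). It was found in 40.9% (38.4 to 43.5) of the gained windows inside coding genes and in 8.24% (6.40 to 10.5) of the 680 grid windows. The older AluS counterpart, CGCTTGAAC, was found at 8.34% of the sites and 12.2% of the grid windows. These 2 strings were chosen after the values above had been seen, so no test is given. CG pairs, identity to the consensus and the AluY string moved together, and their separate parts were not tested.

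Summits were not spread evenly along the Alu element. Of 3393 Alu windows with a position, 1319 (38.9%) had their summit in bases 161 to 220, in the right arm, against 34.9% of gained Alu peaks inside coding genes and 20.5% on the grid. The fullest bin of 20 bases was 181 to 200, with 16.9% of the sites, and the stretch named here is that bin with its neighbours, chosen after seeing the data.

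**Figure D2:**
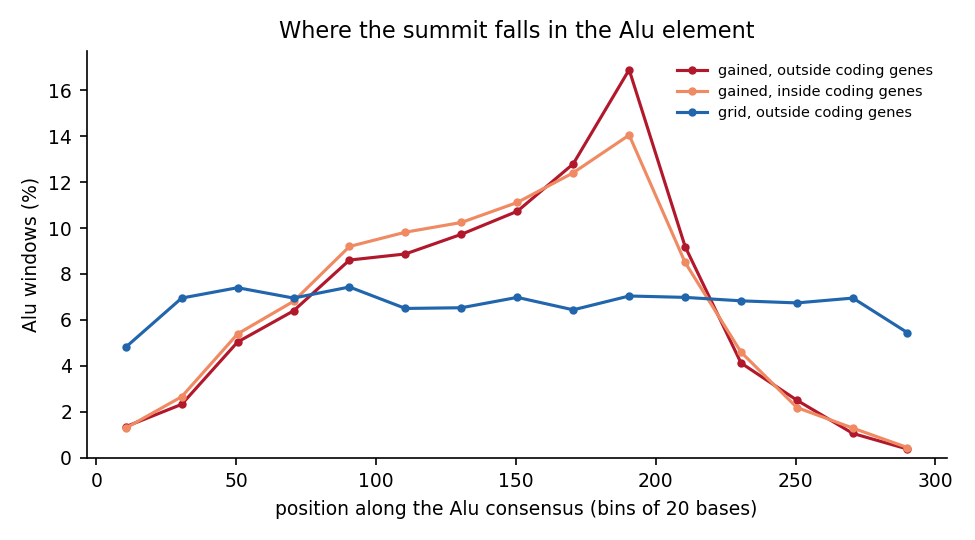
Share of Alu windows, in percent, by the base of the Alu consensus that lies under the summit, in bins of 20 bases, for the gained intergenic sites, gained peaks inside coding genes and the grid. The sites pile up between bases 161 and 220, where 38.9% of them lie against 20.5% of grid positions.

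GC content was high at the sites and low around them. The median was 57.2% at the intergenic sites and 56.7% at gained peaks inside coding genes, against 40.3% at 1 kb away and 39.3% on the grid. This did not rest on repeats alone. In the 1071 sites of no repeat kind the median was 59.7%. In the 1305 windows that were neither Alu nor high-copy, some of them in the families above, it was 60.2%. That compares with 63.2% in the 1660 such windows inside coding genes and 37.8% on the grid. CG pairs in windows neither Alu nor high-copy numbered a median of 6 per window at the sites, 11 inside coding genes and 1 on the grid.

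Many of the sites could hardly be placed by a single read. The study sequenced 51 bases from one end, and in 1387 of the 6612 windows (20.98%, 20.01 to 21.98) none of the 151 stretches of 51 bases was unique in hg19. This was 9.35 points more than at gained peaks inside coding genes (800 of 6882, 11.6%, Fisher's exact test, adjusted p = 5.20e-48). The grid differed in the same direction, with 2.79% of positions outside coding genes and 1.32% inside them. Among gained peaks with 18 reads or more the shares were 40.1% and 41.5%, a difference that did not pass (Fisher's exact test, p = 0.900). Few gained peaks inside coding genes had that many reads, so the order there is open. At the other end, all 151 stretches were unique in 10.2% of the sites and 77.2% of the grid. Sites with no unique stretch made up 29.9% of the L1-type family, 26.1% of the SVA-type family, 18.8% of Alu, 19.8% of the sites of no repeat kind and 2.99% of the third family. How the peak lists treated reads with several matches is not given in the sources used here, and its part in these shares was not tested.

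The peaks themselves were low and short. The pileup at the summit, the number of read fragments over that base as solved from the deposited fold and p-value, had a median of 9 and quartiles of 8 and 10. The lowest was 6 and the highest 139. The local background was a median of 0.88 reads at a base, the deposited fold enrichment 4.89 (quartiles 4.37 and 5.43), the −log10 q 3.05 and the length 118 bp. The fold has a constant added to both pileup and background, so it is lower than the plain ratio of reads. Gained peaks inside coding genes had the same median pileup and fold, with a −log10 q of 2.79. The 1100 double-mutant peaks that were not gained had a median pileup of 37, a fold of 6.36 and a −log10 q of 14.3.

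The other V5 lists had a lower background, which bears on how the sites were chosen. Read numbers were not used here. The flat background of MACS2, which scales with read number and fragment length, was 0.390 times the double mutant's in the WT list, 0.489 times in K450R and 0.623 times in K451R. The lowest pileup called in those lists was 7, 6 and 7 reads. Scaled to the WT background, the median site had 3.51 reads. A pileup equal to the lowest called in WT corresponds to 18 reads in the double mutant, and 317 of the 6612 sites (4.79%) reached it. For K450R, 716 sites (10.8%) reached the 13 reads required, and for K451R 963 (14.6%) reached 12. For the remaining sites, a gain in the double mutant and the lower background of the other lists cannot be told apart from these lists. The comparison used the flat background alone. Local background was higher at some sites that reached these pileups, such as 15.54 reads at chr17:21906293-21906458, where 49 were stacked. Whether the sites that reached these pileups would have been called in the other lists was not tested.

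**Figure D3:**
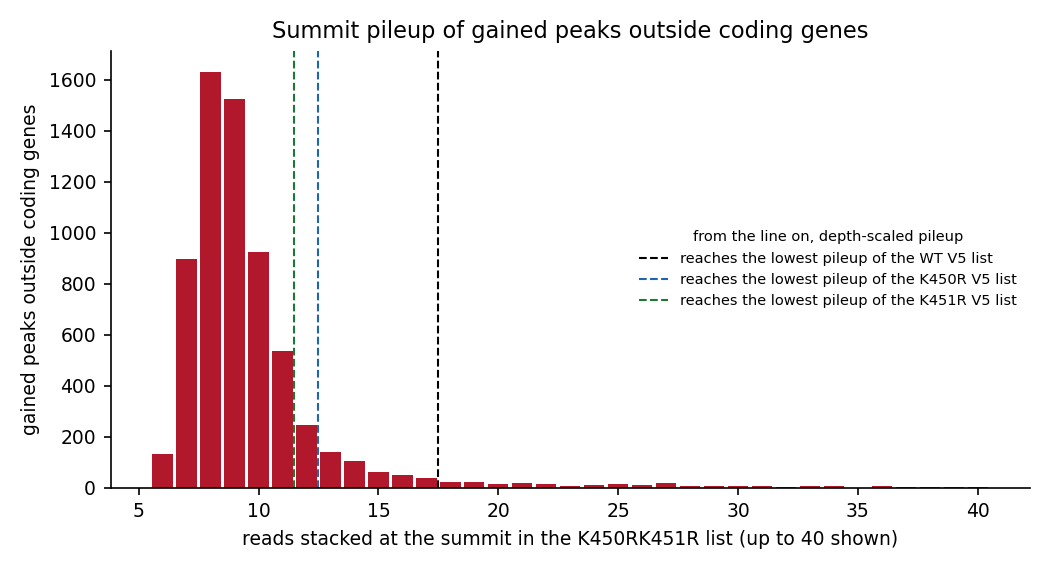
Number of gained intergenic sites by summit pileup in reads, up to 40 reads, with dashed lines at the pileup from which a site, scaled to the background of the WT, K450R or K451R V5 list, reaches the lowest pileup called there. Most sites hold 8 to 10 reads, and 4.79% of them lie to the right of the WT line at 18 reads.

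The kind of sequence changed with the pileup. Among the 1029 sites with 6 or 7 reads, 59.9% were Alu, and among the 3156 with 8 or 9 it was 60.8%. It was 52.4% of the 1711 sites with 10 to 12 reads, 18.8% of the 399 with 13 to 17 and 4.73% of the 317 with 18 or more. In that highest bin, 39.1% were in the smaller families, 12.3% in the GGAAT satellite, 9.46% in the 171-base satellite and 33.1% in no repeat kind. The bin was also the one nearest to gaps, with 84.9% of its sites within 1 Mb of one against 13.1% in the lowest. No unique stretch was found in 40.1% of it, against 14.4% of the lowest. Gained peaks inside coding genes with 18 or more reads were likewise 2.44% Alu, so the intergenic share was the higher one at that pileup, without passing the test (Fisher's exact test, p = 0.542).

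**Figure D4:**
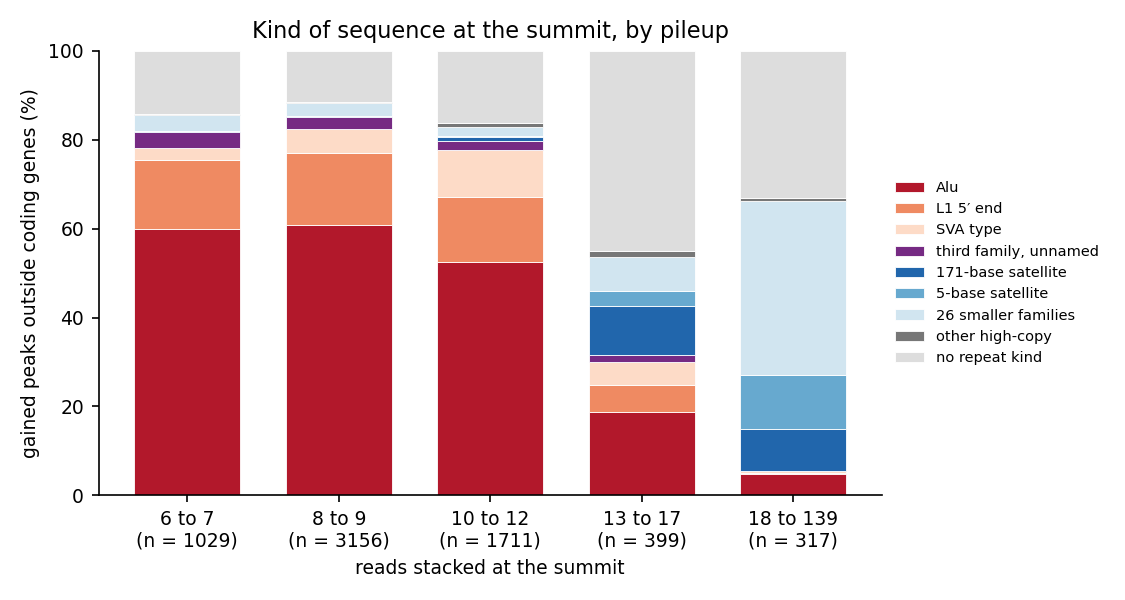
Share of the gained intergenic sites of each sequence kind, in percent of the sites in 5 bins of summit pileup in reads. Alu makes up 59.9% of the lowest bin and 4.73% of the highest, where satellites and the smaller families take its place.

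The 5 sites with the highest −log10 q all had 24 reads or more. The first, chr4:49325092-49325319, had 89 reads at its summit over a local background of 19.9, a fold of 4.31 and a −log10 q of 24.8. It lay 13.8 kb from an assembly gap and 261.1 kb from CWH43, the nearest coding gene, and overlapped a native EHMT1 peak of fold 3.74. The second, chr4:49319887-49320055, had 95 reads over 23.8 and no native EHMT1 peak. The third, chr7:9980-10239, began beside the end of the assembled short arm, 0.049 kb from the gap, and had the highest fold of all sites, 13.2, with 24 reads over 0.9. The fourth, chr2:133030918-133031039, was 15.4 kb from ANKRD30BL and had 72 reads over 14.9. Unlike the others it was far from gaps (16659.6 kb), all of its 151 stretches were unique, and it overlapped a native EHMT1 peak of fold 3.53. The fifth, chr20:62958688-62959192, had 31 reads over 2.1, a fold of 10.3 and lay 6.52 kb from a gap. The window of the first, chr4:49325064-49325264 on the plus strand, is shown because it held the strongest call, with CG pairs in capitals.
chr4 site: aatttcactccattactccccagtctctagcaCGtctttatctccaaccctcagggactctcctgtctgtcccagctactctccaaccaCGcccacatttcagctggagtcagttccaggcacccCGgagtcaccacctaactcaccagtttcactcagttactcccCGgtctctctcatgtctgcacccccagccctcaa

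Native EHMT1 rarely lay at these sites. Of the 6612, 74 (1.12%, 0.892 to 1.40) overlapped a peak of the EHMT1 list of parental cells, whereas 988 of all 14594 double-mutant peaks (6.77%) did. The share at gained peaks inside coding genes was 0.915% (63 of 6882), and the difference of 0.204 points did not pass the test (Fisher's exact test, p = 0.264, adjusted p = 0.411). The EHMT1 list had a flat background 1.18 times that of the double mutant. Over 1 Mb from gaps, where 5285 sites remained, the order turned: 0.492% of the intergenic sites had a native peak against 0.928% inside coding genes (p = 0.00764, Fisher's exact test, a setting added after the data were seen). At the 74 sites the median fold was 6.48 for EHMT1 (1.91 to 16.8) and 4.99 for the double mutant.

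The share of sites with a native EHMT1 peak differed between sequence kinds. Of the 57 sites in the GGAAT satellite, 11 (19.3%) carried a native peak, as did 14 of 95 (14.7%) in the 171-base satellite and 30 of 1071 (2.80%) in no repeat kind. It was 10 of 319 (3.13%) in the smaller families, 1 of 35 (2.86%) in other high-copy windows, 7 of 3522 (0.199%) in Alu and 1 of 948 (0.105%) in the L1-type family. None of the 398 SVA-type sites had one, which allows a share of up to 0.754%, and none of the 167 in the third family, which allows up to 1.80%. By pileup, native peaks were at 0 of the 1029 sites with 6 or 7 reads and at 42 of the 317 sites with 18 or more (13.2%). Of the 74, 48 lay within 1 Mb of a gap, 10 had no unique stretch and 11 were in a noncoding gene.

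RE1 elements were frequent among these shared sites. An RE1 was counted only on a full match to a fixed pattern within the window, so near matches were left out. Of the 74 sites with native EHMT1, 9 (12.2%, 6.53 to 21.5) held an RE1, against 31 of the 6538 sites without it (0.474%, 0.334 to 0.672). All 9 fell in no repeat kind, where 11 sites in all had an RE1. The nearest coding genes were MED27, UBAC1, PTF1A, DRGX, CHRM4, PTPRH, BHLHE23, PCMTD2 and RPS19BP1. PTF1A, DRGX and BHLHE23 encode transcription factors of neural development, and CHRM4 a muscarinic acetylcholine receptor. Whether neural genes were more frequent among these 9 neighbours than at other sites was not tested. Within the gained class RE1 was not particular to intergenic sites. In windows neither Alu nor high-copy it was in 1.07% of them and 1.87% of gained peaks inside coding genes (Fisher's exact test, adjusted p = 0.223), against 0.0143% of the grid.

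The 5 sites with the highest native EHMT1 fold included 3 with a full RE1 match inside the window, beyond which none was searched for. The first was the chromosome 20 site described above, with an EHMT1 fold of 16.8. It lay in an exon of the pseudogene ENSG00000274727, 22.8 kb from PCMTD2. The second, chr1:11610773-11610976, was 13.3 kb from DISP3, with an EHMT1 fold of 14.9 and a double-mutant fold of 5.94. No RE1 was counted there, though the last bases of its window matched the pattern up to the edge. Another stretch of that window was a near match. The third, chr14:106267717-106267847, was an Alu window with an EHMT1 fold of 13.1. The fourth, chr22:39941913-39942066, 13.2 kb from RPS19BP1, and the fifth, chr10:23460312-23460411, 20.9 kb from PTF1A, both held an RE1 and had EHMT1 folds of 12.7 and 12.5 with 9 and 8 double-mutant reads. The first 2 windows are shown because native EHMT1 was strongest there: chr20:62958903-62959103 on the minus strand with its RE1 in capitals, and chr1:11610759-11610959 on the plus strand with CG pairs in capitals.
chr20 site: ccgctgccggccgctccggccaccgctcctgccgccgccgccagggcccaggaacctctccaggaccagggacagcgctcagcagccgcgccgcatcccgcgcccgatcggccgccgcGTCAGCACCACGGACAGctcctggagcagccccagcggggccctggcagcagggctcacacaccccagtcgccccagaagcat
chr1 site: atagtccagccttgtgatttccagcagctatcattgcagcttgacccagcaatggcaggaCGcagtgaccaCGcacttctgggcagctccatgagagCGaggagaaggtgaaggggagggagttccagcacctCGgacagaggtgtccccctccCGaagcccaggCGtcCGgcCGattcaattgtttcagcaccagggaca

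A second set of RE1 matches came from the third family and carried no native EHMT1. Of the 40 sites with an RE1, 28 were in that family, 16.8% of its 167 members, and none of the 28 overlapped a native peak, which allows a share of up to 10.7%. The family held RE1 elsewhere too: in 13 of 60 matching gained windows inside coding genes (21.7%) and in 6 of 59 matching grid windows (10.2%). Among the 28 family elements, 17 bases each, 6 sequences occurred, and the commonest had 15 copies. All 28 family elements differed from all 10 elements at native EHMT1 sites by C3T, written from the native to the family element with positions counted from 1 at the 5′ end. The elements near APOB, ENDOV and ZNF708, outside the family and without a native peak, had C there too. The C was therefore not particular to native EHMT1 sites. Of the native elements, 3 are shown, with the whole element in capitals, from the sites near PTF1A, UBAC1 and RPS19BP1.
PTF1A site RE1: TTCAGCACCAAGGCCAG
UBAC1 site RE1: TTCAGCACCTTGGAGAG
RPS19BP1 site RE1: TTCAGCACCACGGACAG

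Short strings were searched on both strands of the windows and tested between intergenic and intragenic gained peaks, separately in and outside repeats (here Alu or high-copy). Of the 28 tests, 8 passed an adjusted p of 0.05 (Fisher's exact test, Benjamini-Hochberg), 4 higher and 4 lower at the intergenic sites, and 5 of these were among the 24 string tests. In repeats, the MEF2-type string CTAAAAATA, which is bases 119 to 127 of the Alu consensus, was in 41.3% of intergenic and 47.3% of intragenic windows (exact test, adjusted p = 3.53e-09). The B box string GTTCGAGAC, the AluS form of the B box of the Alu promoter, was in 3.58% and 6.95% (exact test, adjusted p = 6.10e-14). Both strings belong to Alu. In Alu windows centred on bases 161 to 220, the MEF2-type string was in 69.7% of the intergenic and 66.2% of the intragenic windows, and the B box string in 1.90% and 3.34%. The FOXA string TGTTTAC was in 6.61% and 3.64% (exact test, adjusted p = 2.91e-11). It was a property of the L1-type family, in 339 of its 948 windows (35.8%). Outside repeats, E2F-type strings (TTTCCCGC, TTTGGCGC, TTTCGCGC or TTTGCCGC) were in 0.920% of intergenic and 2.41% of intragenic windows (exact test, adjusted p = 0.00643). The CTCF motif was in 15 of 1305 (1.15%) and 2 of 1660 (0.120%), with an adjusted p = 0.00102 by the exact test. Of these 15 sites, 9 lay within 1 Mb of a gap, 4 in one of the smaller families, and none overlapped a native EHMT1 peak. E-box, YY1, NRF1, ETS, RE1, telomere and SVA-start strings did not pass in either class. On the grid, the 5 strings that passed differed in the same direction between positions outside and inside coding genes. In repeats the grid shares were 11.0% and 15.9% for MEF2 type, 3.46% and 5.19% for the B box and 2.44% and 1.60% for FOXA. Outside repeats they were 0.267% and 0.319% for E2F type and 0.135% and 0.0444% for CTCF.

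Noncoding genes covered the sites about as often as they covered the grid. Of 6612 sites, 4516 (68.3%) were in no annotated gene, against 70.0% of grid positions. An intron of a long noncoding RNA (lncRNA) held 1720 (26.01%, grid 26.4%) and a lncRNA exon 113 (1.71%, grid 1.57%). Exons of pseudogenes held 118 (1.78%, 1.49 to 2.13), against 0.536% of the grid. Among the 118 were 12 in DUX4-like and 12 in REXO1-like pseudogenes, both of which form tandem arrays, and 3 in mitochondrial pseudogenes. Of the 118, 58.5% were within 1 Mb of a gap, 33.1% had no unique stretch and 4 had a native EHMT1 peak. Within 1 kb of a lncRNA start were 181 sites (2.74%, 2.37 to 3.16), against 1.34% of the grid.

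A site was found in 1408 of 18823 lncRNA genes (7.48%). Of the 1686 noncoding genes that held one, 1246 held 1 site and 30 held 5 or more. The genes with the most were LINC01036 and FRG1-DT with 9 each, CASC15 with 8, and ENSG00000251574 and ENSG00000290551 with 7 each. All were long, at 617.0, 176.3, 990.3, 1009.7 and 802.6 kb in that order, against a median of 6.14 kb over all lncRNA genes. Per 100 kb they held 1.46, 5.10, 0.808, 0.693 and 0.872 sites. The 5 sites with the highest −log10 q near a lncRNA start were chr16:60556745-60556913, 337 bp from the start of ENSG00000261310 in an L1-type window with no unique stretch (fold 7.53, 13 reads), and sites near ENSG00000286483 on chromosome 20, LINC02620 on chromosome 10, RP11-744K17.9 on chromosome 17 and ENSG00000278932 on chromosome 21, with folds from 3.02 to 6.88. In exons of other noncoding genes, after the chromosome 20 site, the highest were in MTND6P22, a mitochondrial pseudogene on chromosome 5 (fold 9.24, 16 reads, with an EHMT1 fold of 11.0), and in REXO1L8P on chromosome 8 (fold 5.05, 30 reads, no unique stretch).

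Lists of noncoding and neighbouring genes were read against all genes of their type. Of 31 prostate lncRNAs in the annotation, 8 (25.8%) had a site within 5 kb, and 9.76% of all 18807 lncRNA genes did. The list's genes were longer, with a median of 29.7 kb against 6.14 kb. CASC15 had 8 sites, PCAT1 7 and SCHLAP1 2, while LINC00844, PCAT19, PVT1, SOCS2-AS1 and UCA1 had 1 each. PCAT1 and SCHLAP1 are lncRNAs raised in prostate cancer, and PVT1 lies beside MYC. The 8 sites at CASC15 were 3 Alu, 3 SVA-type, 1 L1-type and 1 of the smaller families, with 6 to 10 reads. None of the 22 sites of the list overlapped a native EHMT1 peak. Of 12 imprinted or silencing lncRNAs, HELLPAR, PWRN1 and SNHG14 had 1 site each, all in Alu. Host genes of snoRNAs and microRNAs had a site within 5 kb in 22 of 111 cases (19.8%), with 4 at MIR99AHG. MIRLET7A1HG and MIRLET7DHG were both counted for the same site. The genes of these lists were longer than lncRNA genes as a whole too, with medians of 55.8 kb for the imprinted or silencing lncRNAs and 19.999 kb for the host genes. The rule left out sites inside coding genes or within 1 kb of their starts, so for coding genes only flanks could be counted. Among coding genes, none of 30 REST-type neuronal genes had a site within 5 kb, which allows a share of up to 10%. Of 476 zinc finger genes, 12 (2.52%) had one, and of all coding genes 2.17%. A list of 30 genes is too short to be told apart from that 2.17%.

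Taken as a whole, the sites lay nearer to coding genes than the grid, and the strongest of them lay farther away. The median distance to the nearest coding start was 105.2 kb (100.3 to 111.4), against 141.8 kb on the grid, and to the nearest coding gene 75.7 kb against 100.7 kb. For the 836 sites with a −log10 q of at least 5 the median to a coding start was 159.1 kb, and for the 317 with 18 reads or more it was 200.98 kb, both above the grid. Sites at 10 to 50 kb from a coding start were 25.1% of all (grid 20.9%), and those beyond 500 kb 14.9% (grid 19.8%). Within 1 to 5 kb they were 2.81%, below the grid's 3.65%. Alu made up 64.5% of the sites at 1 to 5 kb and 50.8% of those beyond 500 kb, while the median GC content ranged from 56.5% to 57.7% over the distance classes. By kind, the median distance was 52.1 kb for the SVA-type family, 91.8 kb for Alu, 183.3 kb for the L1-type family and 729.3 kb for the 171-base satellite.

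**Figure D5:**
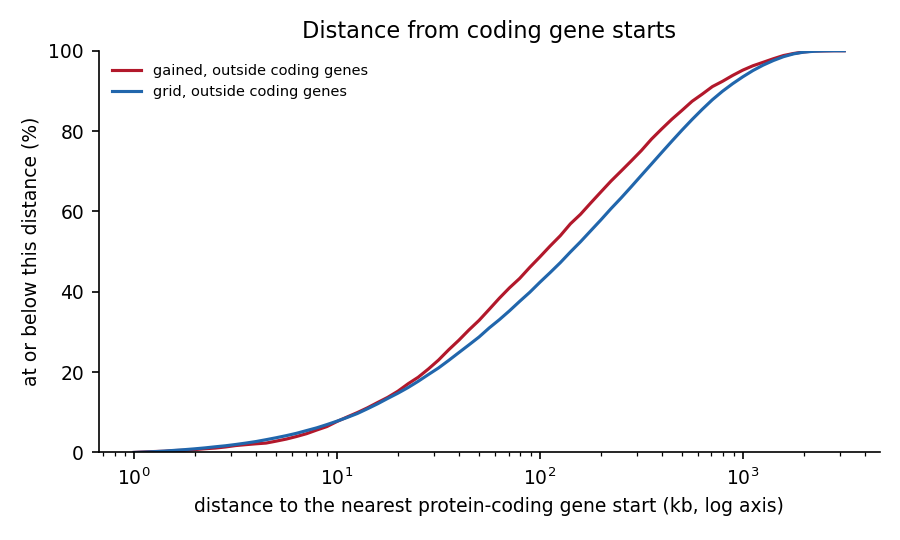
Cumulative share, in percent, of the gained intergenic sites and of grid positions by distance to the nearest coding gene start in kb on a log axis. The curve of the sites lies above that of the grid over most of the range, with medians of 105.2 and 141.8 kb.

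At the edge of the position rule, the nearest sites kept were 1002 bp from the start of INKA1, 1029 bp from CHRM4 and 1043 bp from SULF2, with folds of 3.51, 3.99 and 4.17. The nearest left out were 996, 980 and 971 bp from NUTM2E, CMYA5 and C5orf47, with folds of 4.15, 5.38 and 4.27. The farthest sites from any coding gene were chr4:33570341-33570471 and chr4:33473580-33473699, both Alu windows in an intron of the lncRNA ENSG00000288321, at 2379 and 2325 kb with 7 and 9 reads. Next was chr7:61247274-61247418, a 171-base satellite window at 2212 kb with 16 reads.

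Sites were found at 4.35 per Mb of sequence outside coding genes, from 2.53 on chromosome X to 5.60 on chromosome 9. Within 10 kb of another lay 1222 sites (18.5%), and 376 formed 94 runs of 3 or more. The largest run was 26 sites with summits between 49273009 and 49332545 on chromosome 4, 6397 bp from an assembly gap. It held no Alu and had 18 sites with no unique stretch and 4 with a native EHMT1 peak. The next, 10 sites between 190970548 and 191012345 at the 4q end, had no unique stretch at any site and no native peak. Of all sites, 20.1% were within 1 Mb of a gap (grid 11.7%). In 147 cases (2.22%) a peak of another V5 or H3K9me2 list lay within 1 kb without overlapping.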

How the data were processed

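ChIP-seq peaks of 18 LNCaP samples were used, 9 lists for 9 groups of 2 replicates. Per the labels and the study's methods, reads of 51 bases from one end were checked with FastQC 0.11.9, aligned to hg19 with BWA 0.7.9a, handled with SAMtools 1.2 and called with MACS2 2.1.0, as the submitters' processing notes name these tools. Whether replicates were pooled, and how reads with several matches were treated, is not given in the sources used here. The deposited values used were the authors' fold enrichment, −log10 p and −log10 q. The fold was read as the ratio of summit pileup to local background with the same constant added to both. Columns of the authors' own comparisons were not present in the lists used.

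Summit pileup and background in reads were solved here from the deposited fold and −log10 p under the Poisson model of MACS2, within 0.001 on the −log10 p scale for every peak. Genes came from GENCODE v44lift37. No repeat annotation was used: copies of words of 16 bases and stretches of 51 bases were counted in hg19. Alu was matched with blastn 2.17.0 (e-value 1e-10) to 80 copies from chromosome 21. A consensus of these copies, aligned with mafft 7.526, gave the position and identity of Alu windows. Other windows were clustered at 75% identity over 80 bases. Windows reached 100 bases to either side of the summit. The grid of 40000 bp and windows shifted by 1000 bp served as background. Shares in the classes of gained peaks were set against each other with Fisher's exact test, two-sided (scipy 1.17.1) with Benjamini-Hochberg adjustment over 28 tests. Scripts were tested on simulated data. Intervals are Wilson 95% intervals, and a count of 0 was given a limit of 3 counts. Both cover counting error only.

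The sites and gene lists were chosen with earlier results of these data known. Sites named were the 5 with the highest −log10 q, the 5 with the highest native EHMT1 fold, the 5 and 3 with the highest −log10 q within 1 kb of a lncRNA start and in exons of other noncoding genes, the 3 farthest from coding genes, the 5 noncoding genes with the most sites, and sites within 5 kb of listed genes. Other settings tried were stricter −log10 q or fold, wider distances, whole peaks, reciprocal overlap, smaller windows and a stricter e-value. Some sequence windows are not reported here.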

Additional observations from a re-analysis of the deposited data

How the results depend on the processing

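Most results kept their order under the other settings, and the exceptions follow, with the share inside coding genes second in each pair. With −log10 q of at least 5, 836 sites were left, high-copy sequence was 69.6% against 72.4%, 28.8% lay in a noncoding gene and the median distance to a coding start was 159.1 kb. With a fold of at least 5, 2887 sites were left, native EHMT1 was at 1.28% against 1.37%, 30.6% lay in a noncoding gene and the distance was 118.7 kb. With no other peak allowed within 1 kb, native EHMT1 was at 0.681% against 0.904%, and over 5 kb from coding starts the distance was 112.3 kb. In windows reaching 50 bases to either side the median GC content was 59.4%. Further settings were chosen after seeing the data. Sites whose scaled pileup reached the lowest one called in the WT list numbered 317. Native EHMT1 was at 13.2% of them against 13.4%, Alu at 4.73% against 2.44% and no unique stretch at 40.1% against 41.5%. Their GC content was 60.2%, 29.97% lay in a noncoding gene and the distance was 200.98 kb. With at least 1 unique stretch, GC content was 56.2% and the distance 100.2 kb. Over 1 Mb from gaps, native EHMT1 was at 0.492% against 0.928% and the distance was 99.4 kb. Without Alu, 3090 sites had native EHMT1 at 2.17% against 2.27%, GC content of 59.7% and a distance of 122.2 kb. The smaller window used all sites and every other setting listed fewer, and the cause was otherwise not tested. The distances of 159.1 and 200.98 kb exceed the 141.8 kb of the grid.

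No paired analysis was possible because the 2 replicates of a group shared 1 list, which also kept any replicate from being left out in turn. Depth, as read from the background, limits the call of gain itself: the median site scaled to 3.51 reads in the WT list, below the 7 reads of the lowest call there.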

Other observations

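Some of the smaller families had a structure of their own. In the eighth, 29 sites, 27 windows were tandem with a period of 26 bases. The sixth, 36 sites, had none in tandem and matched 0.575% of the gained intergenic windows (0.419 to 0.788), 0.232% of gained peaks inside coding genes and 0.291% of the grid, so it was the least enriched of the 6 families counted over the grid. The H3K9me2 lists also differed in background: the flat background relative to the double-mutant V5 list was 0.387 times in K450RK451R, 0.616 in K450R, 0.789 in WT and 1.22 in K451R, and 407, 963, 3951 and 6479 of the 6612 sites had a pileup that would correspond to the lowest one called there.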
